A study of Mus musculus with 48 samples.

Results

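The comparison described here asked what an MHC class II blocking antibody changed in conventional CD4 T cells (Tcons), as against an isotype control antibody. It used all 16 CD25- Tcon libraries of the 48 libraries in the series, 8 from mice given the MHC II block and 8 from mice given isotype. All mice were female C57BL/6 animals of 8 to 12 weeks, and each received 2 intraperitoneal doses of 500 µg of either antibody, on the day before and on the day of IL-2 dosing. On the second occasion they also received PBS or 25 µg of an Fc-fused human IL-2 given subcutaneously, either WT IL-2 or the attenuated muteins H16R and 3x. Spleens were taken on day 4, and 1 library was made per mouse, with 2 mice in each of the 8 groups of antibody and treatment. Tcons were the cells that did not bind in the CD25 selection step of a magnetic Treg isolation kit, so they were a depleted fraction rather than a sorted population. The antibody acts on every cell that carries or sees MHC II in the mouse. Separate mice were the replicates. In the tests within a treatment, p-values measure the spread between mice of a group. In the test averaged over treatments they also take in how the blockade effect varied between treatments. The libraries held between 31.31 M and 51.95 M counts, with a median of 38.24 M.

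MHC class II molecules sit on B cells, dendritic cells and macrophages and present peptides to the T cell receptor (TCR) of CD4 T cells. Even without infection, contact with self peptide on MHC II gives resting CD4 T cells a weak, continuing TCR signal, often called tonic signal. TCR engagement drives calcium, MAP kinase and NF-kB signaling and quickly switches on genes such as those of the Nr4a and Egr transcription factors, which are therefore widely used to read recent TCR signal.

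The libraries carried the markers of their label. CD4 T cell markers (7 genes, among them Cd3e and Cd4) summed to 3090, 3386 and 4091 CPM (counts per M counts of the library) as the lowest, median and highest of the 8 isotype libraries. In the 8 MHC II block libraries the same sum ran from 2574 through 3184 to 4330 CPM. Foxp3, the transcription factor that defines Tregs, was also detected, at 55.0 to 189 CPM under isotype and 48.2 to 98.1 CPM under MHC II block. Markers of other spleen cells were present too, and they did not stay level between the arms. The sum of 12 B cell markers was 198, 452 and 1382 CPM under isotype and 174, 212 and 428 CPM under MHC II block. The sum of 12 myeloid markers was 42.1, 71.3 and 156 CPM under isotype and 40.0, 208 and 845 CPM under MHC II block, with up to 2 of the 12 at 0 in a library. In bulk RNA, fewer cells of a type and less RNA per cell cannot be told apart.

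**Figure D1:**
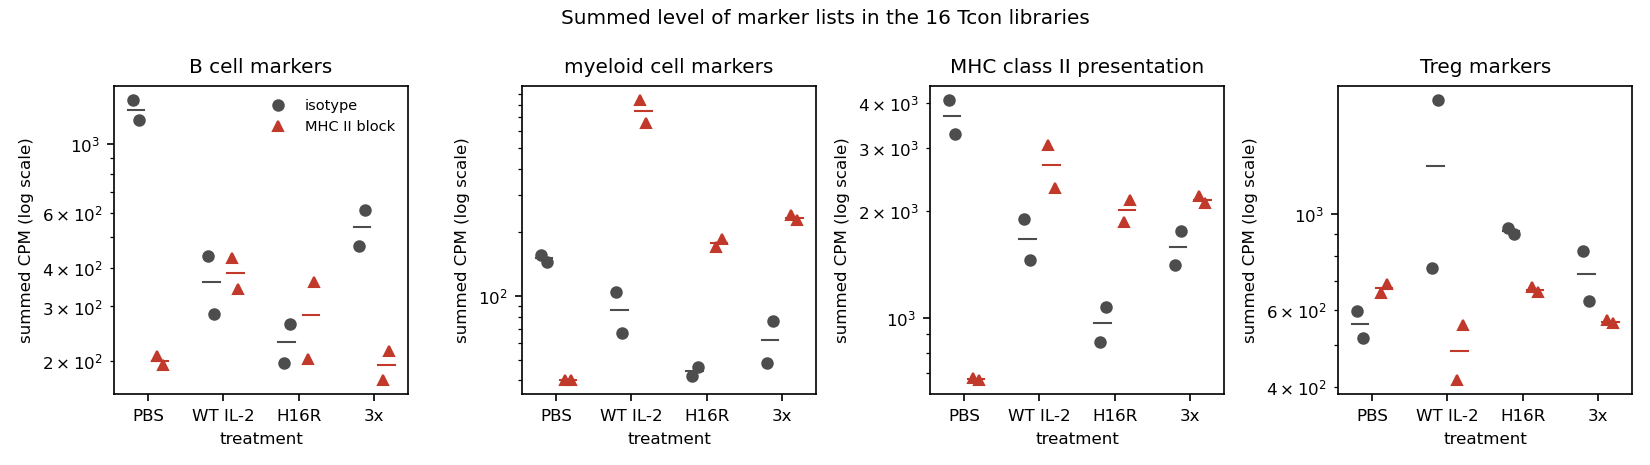
Summed CPM on a log axis of the genes of 4 marker lists in each of the 16 Tcon libraries, by treatment (circles, isotype; triangles, MHC II block; short lines, mean of 2 libraries). Isotype PBS libraries held the most B cell RNA (1188 and 1382 CPM), MHC II block WT IL-2 libraries the most myeloid RNA (658 and 845 CPM), and 1 isotype WT IL-2 library the most Treg RNA (1821 CPM).

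Those marker sums moved with the treatment as well as with the antibody. Of all tested genes 8.21% fell with PBS and 18.5% with 3x. With WT IL-2, H16R and 3x, 6.41%, 3.46% and 20.6% of all tested genes rose. B cell markers were lower under MHC II block with PBS, where all 12 fell (median log2 fold change -2.78), and with 3x, where again all 12 fell (median -1.61). No B cell marker passed the test with WT IL-2 or H16R, where the medians were 0.11 and 0.29. Pax5, the transcription factor that fixes B cell identity, stood at 173 and 130 CPM in the isotype PBS libraries and at 18.5 and 16.3 CPM in the MHC II block PBS libraries. Myeloid markers fell as well with PBS, in 7 of 12 (median -3.04), but rose in 12 of 12 with WT IL-2 (median 3.44), 8 of 12 with H16R (2.40) and 9 of 12 with 3x (2.06). The 11 genes of MHC class II presentation itself moved with both patterns. All 11 were lower with PBS (median -2.64), whereas 7, 9 and 6 of 11 were higher in the WT IL-2, H16R and 3x mice, and 1 (H2-Ob) was lower with 3x. Resting mouse T cells make little MHC II themselves.

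Averaged over treatments, MHC II block changed many Tcon transcripts, most of them by less than 1 on the log2 scale. Of 12529 protein-coding genes tested with treatment as a covariate, 3624 (28.9%) had a Benjamini-Hochberg adjusted p under 0.1 in the quasi-likelihood test of edgeR. Of these, 1727 (13.8% of the genes tested) rose and 1897 (15.1%) fell. A change of at least 1 on the log2 scale was seen in 204, of which 152 rose and 52 fell. The median log2 fold change of all tested genes was 0. The centres of the 2 arms lay apart within every treatment. On the first 2 principal components (40.0% and 17.7% of the variance) the arms lay 54.8 units apart for PBS, 43.5 for WT IL-2, 30.2 for H16R and 58.5 for 3x. Within a group the 2 libraries lay on average 5.4, 26.9, 10.2 and 5.4 units apart in the same order. With WT IL-2 the isotype libraries lay at 17.1 and -17.6 on the first component and the block libraries at 47.9 and 32.5. Isotype WT IL-2 replicate 1 was thus nearer to a block library than to its own mate.

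Much of that count rested on the 3x mice. Leaving out the 4 libraries of that treatment left 170 called genes, 169 of which were among the 3624, and leaving out any 1 of those 4 libraries left 2129 to 2205. A fit that also held the summed B cell and myeloid markers as covariates called 0 genes with edgeR, with 516 at an unadjusted p under 0.05. Treatment and those 2 sums together gave 86.5% of the variance of the antibody term, and the median standard error (SE) of the antibody effect was 0.158 in that fit as against 0.0651 without the sums. The 2 sums together and the antibody can hardly be told apart in these mice. With the B cell sum alone, which with treatment gave 34.9% of that variance, 3566 genes were called, 2437 of them among the 3624.

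TCR response genes were lower in Tcons after MHC II block. Of 21 genes of the immediate early TCR response, 11 fell and 1 (Myc) rose, with a median log2 fold change of -0.33. Among all tested genes 15.1% fell. Dusp5, a phosphatase that switches off ERK, stood at 177, 227 and 277 CPM (lowest, median, highest) in the isotype libraries and at 123, 153 and 179 CPM in the MHC II block libraries. The arms touched only at their edges, and within each of the 4 treatments both block libraries lay below both isotype libraries. Its log2 fold change was -0.61 ± 0.06 (SE, n = 8 per arm, edgeR adjusted p = 0.000119). Nr4a1, the orphan nuclear receptor gene also known as Nur77, was at 432, 511 and 648 CPM under isotype and 280, 366 and 445 CPM under MHC II block. It too was lower in both block libraries of every treatment (log2 fold change -0.51 ± 0.05, edgeR adjusted p = 0.000107). Such a separation in all 4 treatments was seen in 2.6% of tested genes in the downward direction and in 2.08% upward.

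The related receptor gene Nr4a3 ran from 32.2 through 39.7 to 76.3 CPM under isotype and from 23.8 through 26.1 to 36.7 CPM under MHC II block. It fell by 0.67 on the log2 scale (SE 0.12, edgeR adjusted p = 0.00691), and the highest value belonged to 1 isotype WT IL-2 library. Junb, which codes for an AP-1 subunit and was the most abundant of the 4, was at 2184, 2423 and 2795 CPM under isotype and 1604, 1930 and 2048 CPM under MHC II block. Here the arms did not overlap at all, as in only 0.255% of tested genes in that direction, and the log2 fold change was -0.38 ± 0.06 (edgeR adjusted p = 0.00439). Another AP-1 gene, Fosl2, which was picked out after its values were seen, did not overlap either (84.0 to 126 against 44.5 to 63.4 CPM, log2 fold change -0.79 ± 0.09, edgeR adjusted p = 0.000274). The list was not uniform. The genes Nr4a2, Egr2, Egr3, Dusp4, Irf4, Nfkbid and Spry1 also fell, while Fos (0.08), Jun (0.06), Ier2 (-0.04), Dusp2 (0.07) and Cd69 (-0.12) had log2 fold changes near 0 and did not pass.

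**Figure D2:**
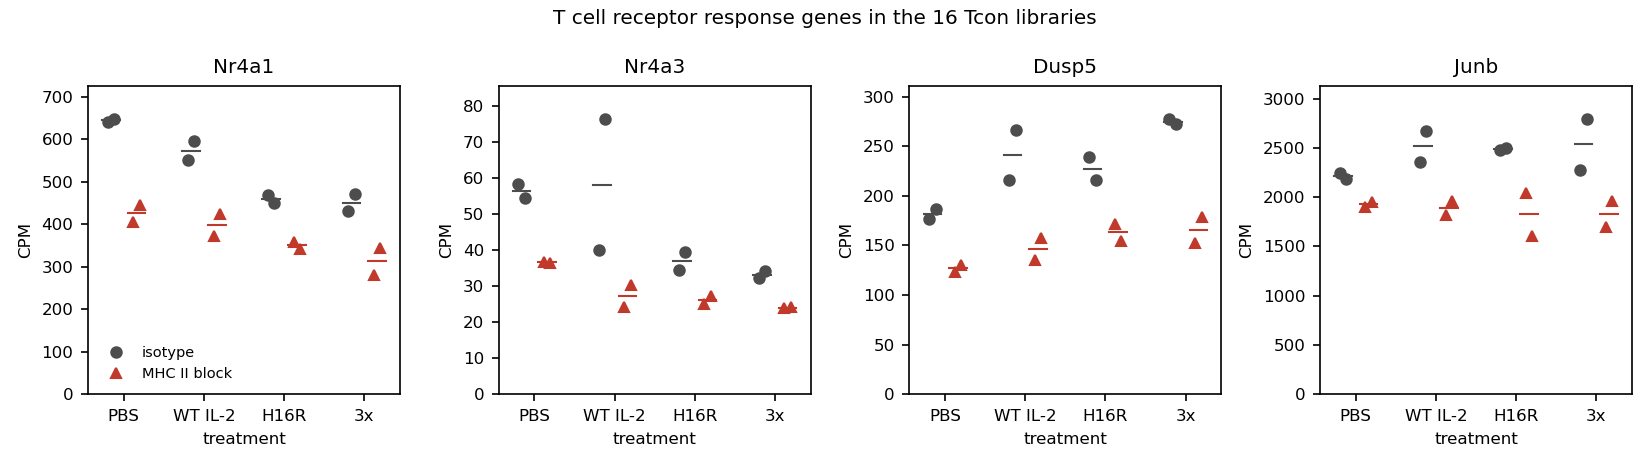
CPM (linear axis from 0) of Nr4a1, Nr4a3, Dusp5 and Junb in each of the 16 Tcon libraries by treatment (circles, isotype; triangles, MHC II block; short lines, mean of 2 libraries). In all 4 treatments the 2 block libraries lie below the 2 isotype libraries for every gene.

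Without the 3x mice 4 of the 21 genes still fell, beside 81 of 12462 tested genes. The 4 were Dusp5 at -0.58, Nr4a1 at -0.51, Nr4a3 at -0.75 and Junb at -0.36. With both marker sums as covariates the 4 log2 fold changes were -0.46, -0.46, -0.69 and -0.39, none of them past the threshold. Over the 4 treatments the blockade effect on Nr4a1 was -0.60 with PBS, -0.52 with WT IL-2, -0.40 for H16R and -0.53 for 3x, and the test of a difference between treatments gave an edgeR adjusted p of 0.709. Other members were less even, since 9 of the 21 genes passed that test, beside 13.2% of all tested genes. Irf4, a factor of activated lymphocytes, had log2 fold changes of -1.06 with PBS and 0.14 with H16R (interaction edgeR adjusted p = 0.00189). Jun was at 0.50 with WT IL-2 and -0.32 with 3x (0.0337), and Cd69 at 0.12 with PBS and -0.63 with 3x (0.0273). Within WT IL-2 10 of the 21 fell and 4 rose, beside 4.44% and 6.41% of all tested genes.

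Windows of 250 bases before the RefSeq start of 3 of these genes (GRCm38.p6) are printed because the genes moved together in all treatments. Capitals mark the core of the cAMP response element, TGACGT, on either strand. Nr4a3 lies at chr4:48045055-48045304 on the plus strand with 3 matches, Dusp5 at chr19:53528895-53529144 on the plus strand with 1 match on the opposite strand, and Nr4a1 at chr15:101266596-101266845 on the plus strand with none.
Nr4a3: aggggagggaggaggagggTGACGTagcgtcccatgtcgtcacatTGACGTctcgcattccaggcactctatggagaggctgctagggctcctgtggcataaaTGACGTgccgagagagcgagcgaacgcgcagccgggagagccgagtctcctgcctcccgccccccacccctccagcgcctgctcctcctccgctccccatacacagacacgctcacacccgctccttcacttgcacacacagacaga
Dusp5: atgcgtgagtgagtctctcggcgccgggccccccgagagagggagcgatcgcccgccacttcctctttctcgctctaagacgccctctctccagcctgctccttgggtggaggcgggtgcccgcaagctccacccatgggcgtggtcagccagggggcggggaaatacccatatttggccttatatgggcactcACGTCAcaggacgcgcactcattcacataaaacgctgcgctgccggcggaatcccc
Nr4a1: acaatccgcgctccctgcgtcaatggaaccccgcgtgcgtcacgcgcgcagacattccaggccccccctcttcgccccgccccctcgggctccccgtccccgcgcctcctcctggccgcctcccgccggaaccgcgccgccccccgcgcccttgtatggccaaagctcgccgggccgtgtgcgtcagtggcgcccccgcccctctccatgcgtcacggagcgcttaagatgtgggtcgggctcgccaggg
The hexamer occurred in 6.47% of all 32851 such windows and in 5 of the 14 immediate early genes that matched a window. A match describes letters only, and the absence of one says nothing about a factor.

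Other lists of TCR signaling are read against the 15.1% of all tested genes that fell. The matching numbers were 1855 of 12529 genes with the B cell marker sum as covariate and 2262 of 12389 without the PBS mice. Of 14 NF-kB subunit and feedback genes, 5 fell and none of the 14 rose, but without isotype WT IL-2 replicate 2, 4 fell and 3 rose. Tnfaip3, the A20 deubiquitinase that restrains NF-kB, stood at 2283, 2548 and 3589 CPM under isotype and 1512, 1879 and 2516 CPM under MHC II block (log2 fold change -0.46 ± 0.10, edgeR adjusted p = 0.0159). Rel, the c-Rel subunit, was at 114, 159 and 322 against 99.5, 126 and 176 CPM (-0.54 ± 0.14, edgeR adjusted p = 0.0264). Traf3, a brake on noncanonical NF-kB, went from a median of 106 to 89.1 CPM (-0.20 ± 0.04, edgeR adjusted p = 0.0128). The ranges of all 3 overlapped, and all 3 calls were lost without the 3x mice. The falls were not confined to 3x. Both block libraries lay below both isotype libraries in 4 treatments for Traf3, as in 2.6% of tested genes, and in 3 for Rel and Tnfaip3. With both marker sums the log2 fold changes were -0.11 for Tnfaip3, -0.28 for Rel and -0.11 for Traf3. Of 15 calcium and NFAT genes, 4 fell, among them Itpr2, an endoplasmic calcium release channel (medians 267 and 200 CPM, log2 fold change -0.31 ± 0.07, edgeR adjusted p = 0.0137). The calcium count was 2 lower and 1 higher without isotype WT IL-2 replicate 2, and 7 lower with the B cell marker sum as covariate. Itpr2 was not called without the 3x mice and was at -0.02 with both marker sums. Of 23 genes of the TCR complex and proximal signaling 2 fell, and the median of that list was -0.06, an average over opposite directions. Within PBS 10 of the 23 rose (median 0.23), beside 1.98% of all tested genes. Within 3x 12 of the 23 fell (median -0.24), beside 18.5% of all tested genes. The CD4 T cell markers moved likewise, with 3 of 7 higher with PBS (median 0.38) and 3 of 7 lower with 3x (median -0.22). All 7 passed the interaction, and their part in this was not tested. Of the 23 TCR complex and proximal signaling genes, 11 passed the interaction. With the B cell marker sum as covariate 11 of the 23 fell (median -0.18), and without the PBS mice 14 fell. Among 12 genes tied to tonic TCR signal, 2 fell, while 8 fell with the B cell marker sum as covariate (median -0.37) and 6 without the PBS mice (median -0.35). The list median was 0.55 with PBS and -0.90 with WT IL-2, and 7 of the 12 passed the interaction. Isotype WT IL-2 replicate 2, the library with the most Treg marker RNA, moved with this list, as in Ikzf2 (514 CPM against 179 CPM in replicate 1), and without it 2 of the 12 rose and 2 fell. The smaller p of the 2 belonged to Ikzf3, the Aiolos transcription factor, at 234, 258 and 271 CPM under isotype and 189, 211 and 240 CPM under block (-0.28 ± 0.04, edgeR adjusted p = 0.00103), which was lower in every treatment, still called without 3x and at -0.17 with both marker sums. Cd5, often read as a surface gauge of self reactivity, had a log2 fold change of -0.11 that did not pass. It stood at 0.34 with PBS, -0.44 with WT IL-2 and -0.32 with 3x, and its interaction passed (edgeR adjusted p = 0.0463).

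A small set of interferon-stimulated genes rose sharply. Ifit1, whose product binds viral RNA, stood at 11.6, 13.9 and 18.7 CPM in the isotype libraries and at 37.1, 83.9 and 139 CPM in the MHC II block libraries. Its log2 fold change was 2.33 ± 0.19 (n = 8 per arm, edgeR adjusted p = 2.54e-05). Its neighbour Ifit3 was at 12.7, 13.8 and 19.0 against 28.4, 48.3 and 78.2 CPM (1.71 ± 0.13, edgeR adjusted p = 1.54e-05). The near copy Ifit3b was at 1.97, 2.35 and 3.40 against 4.80, 9.89 and 17.0 CPM (1.89 ± 0.20, edgeR adjusted p = 0.000183), and reads shared by Ifit3 and Ifit3b could be split between them. Isg15, a ubiquitin-like modifier, was at 11.2, 15.5 and 20.8 against 23.3, 36.0 and 46.2 CPM (1.15 ± 0.10, edgeR adjusted p = 2.54e-05). For all 4 genes every block library lay above every isotype library, as in 0.271% of tested genes in that direction.

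Of its 30 tested genes 10 rose and none of the 30 fell, beside 13.8% of all tested genes that rose, and the median was 0.17. Rtp4 (0.61), Oasl2 (0.60), Usp18 (0.36), Ifit2 (0.32), Oas2 (0.31) and Slfn1 (0.19) rose by less than 1 on the log2 scale. Several standard interferon targets did not pass, with log2 fold changes of 0.17 for Mx1, 0.09 for Irf7, 0.07 for Rsad2 and -0.01 for Oas1a. Without the 3x mice 6 of the 30 rose, beside 89 of 12462 tested genes. The values were then 2.55 for Ifit1, 1.79 for Ifit3, 1.98 for Ifit3b and 1.10 for Isg15, all still called. With both marker sums as covariates they were 2.49, 1.51, 1.60 and 0.74 and no longer passed.

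**Figure D3:**
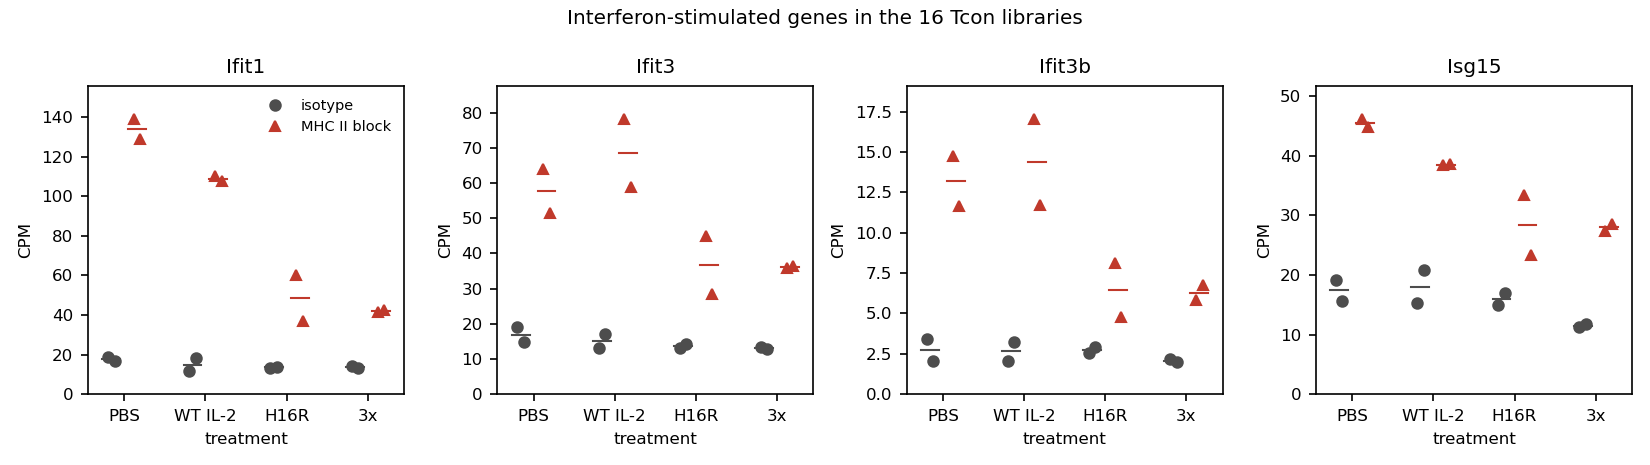
CPM (linear axis from 0) of Ifit1, Ifit3, Ifit3b and Isg15 in each of the 16 Tcon libraries by treatment (circles, isotype; triangles, MHC II block; short lines, mean of 2 libraries). Every block library lies above every isotype library, with Ifit1 highest in the block PBS libraries (139 and 129 CPM).

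The rise of Ifit1 depended on the treatment. The 2 block libraries held 139 and 129 CPM with PBS, 110 and 108 with WT IL-2, 60.0 and 37.1 with H16R, and 41.5 and 42.5 with 3x, while the isotype libraries stayed between 11.6 and 18.7 CPM. The log2 fold changes were 2.92, 2.87, 1.85 and 1.64, and the interaction gave an edgeR adjusted p of 0.0198. For Ifit3, Ifit3b and Isg15 the interaction did not pass (edgeR adjusted p of 0.296, 0.233 and 0.369).

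The windows before the starts of the 4 genes are printed since they share a sequence that the gene list did not use. Capitals mark a core of the interferon-stimulated response element, GAAA followed after any 2 bases by a second GAAA, searched on both strands with overlapping matches allowed. In RefSeq on GRCm38.p6 they lie at chr19:34640639-34640888, chr19:34583279-34583528 and chr19:34607707-34607956 on the plus strand, each with 2 matches on the opposite strand, and at chr4:156200819-156201068 on the minus strand, with 3 overlapping matches on its own strand.
Ifit1: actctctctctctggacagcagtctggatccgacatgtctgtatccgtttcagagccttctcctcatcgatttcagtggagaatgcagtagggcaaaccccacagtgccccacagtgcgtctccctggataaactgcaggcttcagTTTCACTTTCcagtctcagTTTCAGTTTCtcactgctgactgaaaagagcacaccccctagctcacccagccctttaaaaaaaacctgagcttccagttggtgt
Ifit3: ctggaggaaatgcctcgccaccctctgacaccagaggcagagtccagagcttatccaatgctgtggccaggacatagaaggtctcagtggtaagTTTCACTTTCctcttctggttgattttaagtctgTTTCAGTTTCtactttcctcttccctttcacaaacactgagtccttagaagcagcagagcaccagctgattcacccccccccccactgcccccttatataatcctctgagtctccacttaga
Ifit3b: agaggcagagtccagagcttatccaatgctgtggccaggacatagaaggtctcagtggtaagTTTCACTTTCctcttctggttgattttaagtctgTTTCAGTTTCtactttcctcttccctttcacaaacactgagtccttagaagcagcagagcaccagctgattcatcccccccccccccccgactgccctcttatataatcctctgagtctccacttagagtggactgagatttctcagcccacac
Isg15: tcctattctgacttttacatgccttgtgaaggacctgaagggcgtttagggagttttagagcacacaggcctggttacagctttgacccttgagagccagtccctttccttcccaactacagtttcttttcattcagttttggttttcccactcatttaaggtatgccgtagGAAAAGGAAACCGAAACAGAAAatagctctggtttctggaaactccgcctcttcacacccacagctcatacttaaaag
The windows of Ifit3 and Ifit3b shared an identical run of 169 bases. The element was found in 2.98% of all windows and in 12 of the 23 interferon list genes that matched one.

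Among called genes above 5 CPM with 1 direction in all 4 treatments, the largest rises outside the Ifit genes were those of F13a1, Ctsg, Dsp, Prtn3, Mpo, Elane, Ms4a3, Epx and Padi4, none of which belonged to a list used here. That rule left out Lyz2, the lysozyme of mature myeloid cells, which was at 1.85 on average but at -2.61 with PBS. Mpo, the myeloperoxidase of neutrophil granules, stood at 30.1, 85.1 and 219 CPM under isotype and 149, 385 and 628 CPM under MHC II block (log2 fold change 2.23 ± 0.25, edgeR adjusted p = 0.00029). The serine protease genes Ctsg (2.27 ± 0.27), Prtn3 (2.24 ± 0.25) and Elane (2.19 ± 0.27) of the same granules rose too, with edgeR adjusted p of 0.000327, 0.00029 and 0.000549. Epx, an eosinophil peroxidase, Ms4a3, a gene of granulocyte and monocyte precursors, and Padi4, which citrullinates histones in neutrophils, rose by 1.92 ± 0.44, 1.96 ± 0.23 and 1.79 ± 0.35. Within every treatment both block libraries exceeded both isotype libraries for all 7 genes, which were picked for 1 direction in all 4 treatments. Such a separation was seen in 2.08% of all tested genes. Across treatments the ranges overlapped, and isotype levels differed as well. Mpo was at 30.3 and 30.1 CPM in isotype PBS and at 219 and 127 CPM in isotype WT IL-2.

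F13a1, the coagulation factor XIII A chain made by monocytes, and Dsp, which codes for desmoplakin, did not overlap between arms. That was so for 0.271% of tested genes in that direction. F13a1 was at 2.39, 4.39 and 8.12 CPM under isotype and 9.13, 23.2 and 40.3 CPM under block (2.28 ± 0.26, edgeR adjusted p = 0.000296). Dsp was at 0.968, 1.82 and 2.87 against 5.18, 8.09 and 16.1 CPM (2.26 ± 0.30, edgeR adjusted p = 0.000925). Another 4 rises were picked out after their values were seen. Dntt, the terminal transferase of lymphoid precursors, had the smallest p of these (3.37, 5.67 and 5.97 against 11.7, 16.6 and 21.4 CPM, 1.70 ± 0.11, edgeR adjusted p = 4.53e-06). Cd34, a surface marker of progenitors, went from 4.11, 6.38 and 12.5 to 18.5, 20.8 and 30.4 CPM (1.69 ± 0.17, edgeR adjusted p = 0.000128). Tnf, an inflammatory cytokine, went from 25.2, 33.0 and 42.4 to 50.1, 90.1 and 122 CPM (1.31 ± 0.11, edgeR adjusted p = 2.54e-05). The chemokine gene Cxcl10 went from 5.53, 9.37 and 23.6 to 14.2, 32.4 and 48.9 CPM (1.46 ± 0.15, edgeR adjusted p = 0.000161), and it was the only one of the 4 with overlapping arms. With PBS 7 of the 12 myeloid markers fell, while Mpo rose by 2.38 and Ctsg by 2.31.

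The summed myeloid markers moved with this group in 3 of 4 treatments, and their part in it was not tested beyond the fit with both sums. In that fit the log2 fold change was 0.90 for Mpo, 0.77 for Elane, 0.93 for Ctsg, 2.20 for Dsp, 1.59 for Dntt and 1.28 for Tnf, none past the threshold. Without the 3x mice the calls of Mpo, Ctsg, Prtn3, Elane, Ms4a3, Epx, F13a1, Dsp, Dntt, Cd34, Tnf and Cxcl10 remained and that of Padi4 did not.

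Among called genes above 5 CPM with 1 direction in all 4 treatments, the largest falls were led by Nyx and included Areg, an epidermal growth factor family member made by tissue repair T cells. Areg stood at 4.74, 5.99 and 25.8 CPM under isotype and 2.35, 3.66 and 4.55 CPM under MHC II block, with no overlap (-1.16 ± 0.29, edgeR adjusted p = 0.0231). The top value came from the isotype WT IL-2 library that also held the most Treg marker RNA. Ccr8, a chemokine receptor of skin-homing and effector Tregs, was at 5.61, 8.54 and 19.5 against 3.80, 5.03 and 6.02 CPM (-0.86 ± 0.20, edgeR adjusted p = 0.0191). Cd83, an activation marker of dendritic, B and T cells, was at 20.5, 32.4 and 105 against 17.1, 21.0 and 28.9 CPM (-0.86 ± 0.20, edgeR adjusted p = 0.0192), with its 2 highest values in the isotype PBS libraries. The cytoskeletal linker gene Dst fell from a median of 38.2 to 20.6 CPM (-0.98 ± 0.23, edgeR adjusted p = 0.0188) and Nyx from 5.93 to 2.82 CPM (-1.33 ± 0.36, edgeR adjusted p = 0.0294). The 2 highest values of Nyx were also those of the isotype PBS libraries (11.8 and 22.8 CPM). Its log2 fold changes of -2.71 with PBS, -0.45 with WT IL-2, -0.28 for H16R and -1.82 for 3x lay beside B cell marker medians of -2.78, 0.11, 0.29 and -1.61, whose part in it was not tested. All 5 calls were lost without the 3x mice, though none of the 5 fell most in 3x. With PBS, WT IL-2, H16R and 3x the log2 fold changes were -0.44, -2.35, -1.23 and -0.63 for Areg and -0.37, -1.69, -0.79 and -0.60 for Ccr8. In the same order they were -1.96, -0.62, -0.17 and -0.67 for Cd83 and -0.18, -1.72, -1.01 and -1.03 for Dst. With both marker sums the log2 fold changes were -1.60 for Areg, -0.91 for Ccr8, -0.95 for Cd83, -0.79 for Dst and -0.29 for Nyx, none past the threshold. The other 7 of the 12 largest falls (Itgb8, Ttbk1, Nid1, Sspn, Cacna1e, Igsf9b and Ttn) ranged from -1.16 to -0.88.

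Treg marker RNA in the Tcon fraction was lower too on average, but not with PBS. There the marker sum was 597 and 519 CPM under isotype and 659 and 690 CPM under block, and the list median was 0.14. Of 9 Treg markers 5 fell, with a median of -0.50, and without the isotype WT IL-2 library at 1821 CPM (replicate 2) 4 of the 9 fell, with a median of -0.26. In the other 7 isotype libraries the sum was 519 to 928 CPM, and in the block libraries it was 415 to 690 CPM. Within WT IL-2 all 9 were lower (median -1.30), beside 4.44% of all tested genes, and within the other treatments none of the 9 passed. Il2ra, the CD25 chain by which the fraction was depleted, was at 19.0, 50.5 and 74.8 against 18.3, 39.5 and 53.7 CPM (-0.31 ± 0.09, edgeR adjusted p = 0.0404). Socs2, a STAT5 target that damps cytokine signals, was lower in both block libraries of every treatment (medians 22.5 and 17.1 CPM, -0.36 ± 0.08, edgeR adjusted p = 0.0167). Averaged over treatments, 15.1% of all tested genes fell and 13.8% rose. Of the 11 IL-2 receptor and STAT5 target genes 3 fell and 1 rose, and without isotype WT IL-2 replicate 2, 2 fell and 3 rose. The calls of Il2ra and Socs2 were lost without the 3x mice, though neither gene fell most in 3x. By treatment, Il2ra had log2 fold changes of -0.04 (PBS), -0.70 (WT IL-2), -0.41 (H16R) and -0.08 (3x). Those of Socs2 in that order were -0.19, -0.55, -0.25 and -0.44. Without the 3x mice the Treg list had 0 of 9 called with edgeR (median -0.56). With both marker sums the Treg list median was -0.49, Il2ra was at -0.49 and Socs2 at -0.26.

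Genes of costimulation and helper lineage held both rises and falls. Cd28, the main costimulatory receptor, was at 342, 434 and 547 CPM under isotype and 224, 274 and 476 CPM under block (-0.51 ± 0.13, edgeR adjusted p = 0.0249). Its level was lower with WT IL-2 (-0.83) and 3x (-0.91) and was 0.04 with PBS, and the interaction passed (edgeR adjusted p = 0.0684). Of 13 costimulatory and inhibitory receptors 4 fell, with a list median of -0.24. Of 30 helper lineage and effector genes 5 fell and 6 rose, with a median of 0.07. The helper shares are near the 15.1% and 13.8% of all tested genes that fell and rose. Of the 13 receptors, 10 fell with the B cell marker sum as covariate, 9 without the PBS mice and 0 without the 3x mice (edgeR). Among all tested genes 1855 of 12529, 2262 of 12389 and 81 of 12462 fell in those fits. Cxcr5, which guides T cells into follicles, fell from 18.5, 30.9 and 63.6 to 14.4, 19.1 and 48.4 CPM (-0.59 ± 0.12, edgeR adjusted p = 0.0101). Ccr6, a receptor of Th17 cells and B cells, fell from 2.61, 4.55 and 7.58 to 1.95, 2.76 and 3.80 CPM (-0.80 ± 0.17, edgeR adjusted p = 0.014) and was the only one of these still called without 3x. Rora, a Th17 and innate-like lineage factor, fell from a median of 101 to 73.9 CPM (-0.51 ± 0.11, edgeR adjusted p = 0.0153), and the memory marker Cd44 from 194 to 169 CPM (-0.21 ± 0.05, edgeR adjusted p = 0.0157). None of the 30 helper genes rose without the 3x mice. With both marker sums Cd28 was at 0.20, Cxcr5 at -0.07, Ccr6 at -0.68, Rora at -0.55 and Cd44 at -0.24, none past the threshold.

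Naive cell genes fell within 3x. Of 13 averaged over treatments, 5 fell and 1 rose, with a median of -0.16, beside 15.1% and 13.8% of all tested genes. Within 3x, where 18.5% of all tested genes fell, 11 of the 13 fell (median -0.49), whereas within PBS, WT IL-2 and H16R 0, 1 and 0 fell. The CD4 T cell markers moved the same way in 3x (3 of 7 fell, median -0.22), and their part in this was not tested. Il7r, the receptor chain for the survival cytokine IL-7, was at 473 and 434 CPM in the isotype 3x libraries and at 221 and 231 CPM in the block 3x libraries, a log2 fold change of -1.00, as against -0.01 with PBS. Its interaction passed (edgeR adjusted p = 0.00292), and so did that of Foxo1, which maintains Il7r and homing genes (0.06 with PBS, -0.52 with 3x, edgeR adjusted p = 0.0927). Averaged over treatments, Il7r fell by 0.36 on the log2 scale (edgeR adjusted p = 0.0476) and Foxo1 by 0.24 (edgeR adjusted p = 0.041). Without MHC II block 3x replicate 1 or replicate 2 the adjusted p of Il7r was 0.106 and 0.11, so that call rested on both libraries. Igfbp4, found in naive CD4 T cells, rose by 0.27 ± 0.07 (medians 316 and 378 CPM, edgeR adjusted p = 0.0214). Ly6a, the Sca-1 surface protein, rose as well, from 74.6, 102 and 132 to 92.3, 124 and 168 CPM (0.31 ± 0.07, edgeR adjusted p = 0.014). In all 2 of 4 Ly6 genes rose, beside 13.8% of all tested genes. Without the 3x mice none of the 13 naive genes fell, Il7r, Foxo1 and Ly6a lost their calls and Igfbp4 kept its call. With both marker sums Il7r was at 0.31, Foxo1 at 0.12, Igfbp4 at 0.42 and Ly6a at 0.19.

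Cell division genes rose after MHC II block in the 3x mice. Averaged over treatments, 12 of 15 such genes rose, with a median of 0.53, but 0 of 15 did so without the 3x mice (edgeR, median 0.28). With the B cell marker sum as covariate 8 of 15 rose, beside 1711 of 12529 tested genes. In the average over treatments 7 of 14 DNA replication genes rose, with a median of 0.29, beside 13.8% of all tested genes. The replication count was 2 without isotype WT IL-2 replicate 2, 1 with the B cell marker sum as covariate and 0 without the 3x mice (edgeR), and within 3x it was 13. None of either list fell. Ube2c, which drives exit from mitosis, was at 12.3, 21.4 and 49.8 CPM under isotype and 23.8, 44.9 and 55.8 CPM under block (0.66 ± 0.20, edgeR adjusted p = 0.0393). Top2a, the topoisomerase of dividing cells, was at 72.6, 129 and 213 against 124, 200 and 220 CPM (0.42 ± 0.13, edgeR adjusted p = 0.0461). Cenpe, a kinetochore motor, went from a median of 26.0 to 37.3 CPM (0.47 ± 0.15, edgeR adjusted p = 0.0448). Within 3x, 15 of 15 rose (median 1.27), beside 20.6% of all tested genes, and Ube2c was at 18.7 and 12.3 CPM under isotype and 43.2 and 44.1 CPM under block. Within each of the other 3 treatments none of the 15 passed, with medians of 0.10, 0.41 and 0.27 for PBS, WT IL-2 and H16R. The interaction passed for 0 of the 15 genes in edgeR, with 7 of the 15 at an unadjusted p under 0.05, so a difference between treatments was not shown for any single gene. Markers of other cells moved with them in 3x. All 6 plasma cell markers rose there (median 1.43, summed 409 and 522 CPM under isotype and 929 and 1340 CPM under block) and none of the 6 passed within the other treatments. Of 7 erythroid and platelet markers 2 rose in 3x (median 2.30, summed 16.8 and 13.7 against 54.5 and 32.9 CPM). Myeloid markers (9 of 12) and dendritic cell markers (5 of 6) also rose in 3x, as did Mpo (3.48), Elane (3.76), Ctsg (3.75), Epx (4.14) and Ms4a3 (3.31). Their part in the result was not tested. Ube2c, Top2a and Cenpe lost their calls without the 3x mice, and with both marker sums their log2 fold changes turned negative (-0.18, -0.24 and -0.26).

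**Figure D4:**
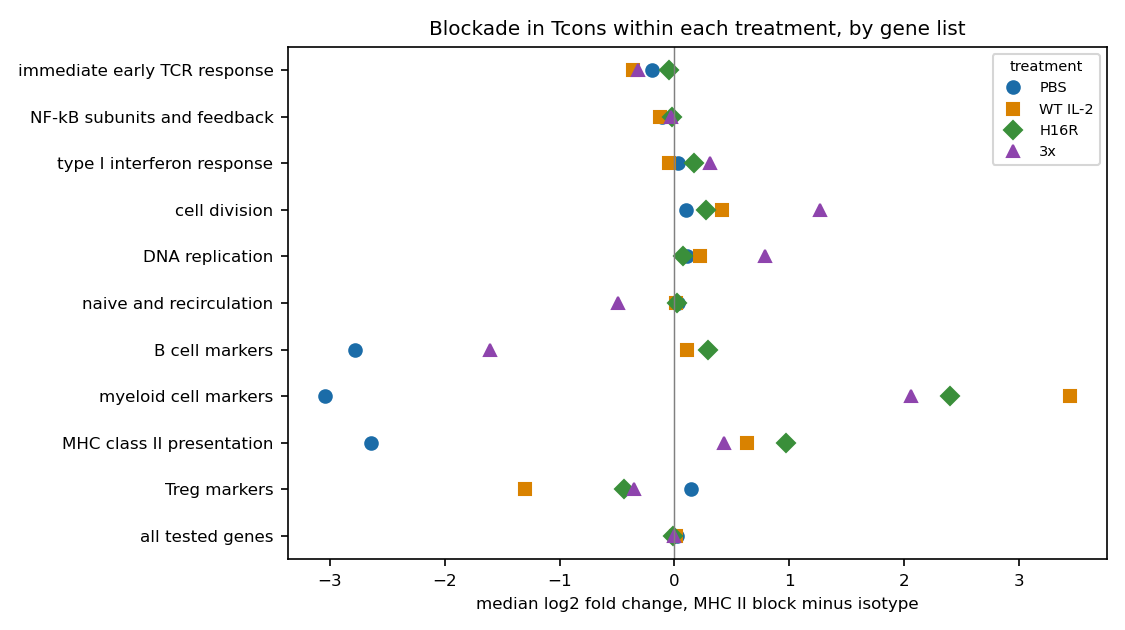
Median log2 fold change (MHC II block minus isotype) of the tested genes of 10 lists and of all 12529 genes, within each treatment (2 against 2 libraries). The cell division median is 1.27 with 3x and 0.10 to 0.41 otherwise, and the B cell, myeloid and MHC class II medians lie near -3 with PBS (-2.78, -3.04 and -2.64).

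Within single treatments the counts differed widely. With PBS 1277 genes (10.2%) were called, and 248 (1.98%) rose and 1029 (8.21%) fell. With WT IL-2 1359 (10.8%) were called, and 803 (6.41%) rose and 556 (4.44%) fell. For H16R 525 (4.19%) were called, and 434 (3.46%) rose and 91 (0.726%) fell. For 3x 4902 (39.1%) were called, and 2587 (20.6%) rose and 2315 (18.5%) fell. Each of these rests on 2 mice per arm, with the spread shared over the 8 groups. The 2 isotype WT IL-2 libraries differed most, and leaving out 1 of the 4 WT IL-2 libraries gave 355 (without MHC II block replicate 1) to 6296 genes (without isotype replicate 1). For H16R the range was 242 to 420, for PBS 729 to 856 and for 3x 2449 to 3106. The effect of blockade differed between treatments for 1651 genes (13.2%), and for 914 (without MHC II block PBS replicate 2) to 5746 (without isotype WT IL-2 replicate 1) with 1 library left out. The 4 genes with the smallest p in that test, among those above 5 CPM on average, were Atf3, Alox5ap, Flt3 and Nfam1, each with an edgeR adjusted p of 5.2e-06. Alox5ap, which serves leukotriene synthesis in myeloid cells, went from 20.1 and 18.0 CPM to 9.35 and 9.15 CPM with PBS, but from 14.5 and 11.5 to 50.2 and 43.1 CPM with WT IL-2. With 3x it went from 8.61 and 8.50 to 32.1 and 33.8 CPM. Flt3, the receptor of dendritic cell and progenitor growth, had log2 fold changes of -0.93 with PBS and 1.46, 1.69 and 1.80 with WT IL-2, H16R and 3x. Nfam1, an ITAM receptor, ran from -1.37 with PBS to 1.46 with WT IL-2. The stress factor gene Atf3 ran from -1.74 with PBS to 1.04 with WT IL-2. The direction of all 4 was that of the myeloid marker sum in the same treatments.

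The Tregs of the same 16 mice were also sequenced. In Tregs 1526 of 12168 genes (12.5%) were called (5.85% higher and 6.69% lower), and the blockade effect differed between Tcons and Tregs for 2800 of 12845 (21.8%), in a fit that kept each mouse as a block. The effect was more positive in Tcons for 1077 (8.38%) and more negative for 1723 (13.4%). In the immediate early list 12 of 21 genes fell in Tregs and 11 in Tcons, but the effect differed between the cell types for 11 of the 21. Among those that differed, Egr2 (-0.50 in Tcons and -0.18 in Tregs, difference edgeR adjusted p = 0.0184) and Egr3 (-0.49 and -0.11, 0.0365) had the more negative effect in Tcons. Cd69 (-0.12 and -0.46, 0.00639) and Ier2 (-0.04 and -0.29, 0.00165) had it in Tregs. For the 4 genes plotted by library no difference passed. Nr4a1 changed by -0.51 in Tcons and -0.54 in Tregs (difference 0.02 ± 0.05, edgeR adjusted p = 0.818). Junb changed by -0.38 and -0.46 (difference 0.07 ± 0.05, edgeR adjusted p = 0.33), Dusp5 by -0.61 and -0.46 (difference -0.16 ± 0.07, edgeR adjusted p = 0.169), and Nr4a3 by -0.67 and -0.85 (difference 0.19 ± 0.08, edgeR adjusted p = 0.11). Cd83, Rel and Tnfaip3 showed no called difference either (0.15 ± 0.20, 0.05 ± 0.12 and 0.11 ± 0.07).

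**Figure D5:**
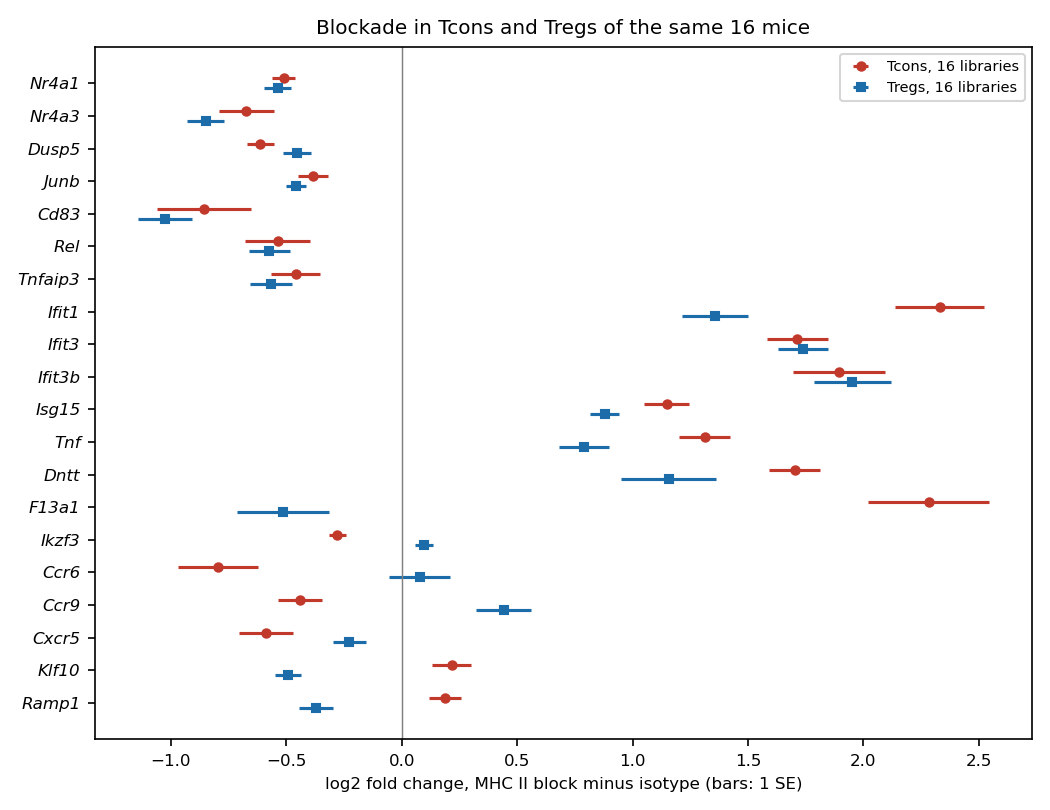
Log2 fold change (MHC II block minus isotype, bars 1 SE) of 20 genes in the 16 Tcon libraries (circles) and in the 16 Treg libraries of the same mice (squares). Nr4a1, Nr4a3, Dusp5 and Junb lie left of 0 in both cell types, while Ccr9 is at -0.44 in Tcons and 0.44 in Tregs and Klf10 at 0.22 and -0.49.

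Other genes set the cell types apart. Ccr9, a gut-homing chemokine receptor, was at 28.0, 45.4 and 56.0 CPM in isotype Tcons and 22.0, 33.1 and 42.0 CPM in block Tcons (-0.44 ± 0.10, edgeR adjusted p = 0.0137), but rose by 0.44 ± 0.12 in Tregs, and the difference was -0.89 ± 0.07 (edgeR adjusted p = 3.62e-05). Klf10, a TGF-beta response factor, was at 0.22 ± 0.08 in Tcons and -0.49 ± 0.06 in Tregs (difference 0.71 ± 0.06, edgeR adjusted p = 4.81e-05). Ramp1, a subunit of the CGRP neuropeptide receptor, was at 0.19 ± 0.07 and -0.37 ± 0.07 (difference 0.56 ± 0.05, edgeR adjusted p = 5.14e-05). The Tcon values of Klf10 and Ramp1 lost their own calls in 9 and 9 of the 16 fits that left out a library, with adjusted p of up to 0.192 and 0.13. F13a1 was at 2.28 in Tcons and -0.52 in Tregs, a difference of 2.78 ± 0.28 (edgeR adjusted p = 0.000114). Ifit1 rose more in Tcons than in Tregs (2.33 and 1.36, difference 0.97 ± 0.17, edgeR adjusted p = 0.00356), while Ifit3 did not differ by a called amount (1.71 and 1.74, difference -0.03 ± 0.11, edgeR adjusted p = 0.901). Tnf (1.31 and 0.79), Cxcl10 (1.46 and 0.58) and Dntt (1.70 and 1.16) rose more in Tcons, with differences of 0.51 ± 0.08, 0.89 ± 0.13 and 0.55 ± 0.15. Ikzf3 fell in Tcons and was at 0.10 ± 0.04 in Tregs (difference -0.38 ± 0.07, edgeR adjusted p = 0.004), and Ccr6 was at 0.08 ± 0.13 in Tregs (difference -0.87 ± 0.13, edgeR adjusted p = 0.00151). Without the mouse as a block 571 genes differed in place of 2800.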

How the data were processed

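RNA from splenic Tcons was sequenced as stranded mRNA libraries. The authors aligned reads with OSA in Omicsoft Array Suite to mouse genome B38 with a GENCODE gene model and deposited RSEM expected counts per gene, not normalized. They also deposited FPKM values, used here only as log2(FPKM + 1) or log2(FPKM + 0.1) in alternatives. The authors' own comparisons (fold changes and p-values of Tregs, from DESeq2 1.30.1 per the submitters' processing notes) were not used.

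Expected counts were rounded, and 72.6% of nonzero values had no fractional part as deposited. Protein-coding genes above 0.5 CPM in at least 4 libraries were kept, scaled by TMM and fitted with edgeR 4.0.16 (quasi-likelihood, R 4.3.3), with treatment as covariate. Calls had a Benjamini-Hochberg adjusted p under 0.1. Treatments were separated in a fit with 8 group means, and Tcons were set against Tregs with the mouse as a block. The alternatives used limma 3.58.1 and DESeq2 1.42.0. The steps were tested on simulated data.

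The comparison and the 26 gene lists were chosen with earlier results of these data known. Genes were named by rule: the 12 largest rises and falls with a mean above 5 CPM and 1 direction in all 4 treatments, up to 4 called genes per list by smallest p, and the 4 smallest p in the interaction and the Tcon minus Treg tests. Some of the genes so named are given without values.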

Additional observations from a re-analysis of the deposited data

Results flagged for a closer look

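Single libraries stood apart in 4 of 22 quantities tested for an outlying library, a test that chance passes in about 1 of 20 groups. Summed Treg markers reached 1821 CPM in isotype WT IL-2 replicate 2, with the next isotype library at 927.8 CPM. Summed erythroid and platelet markers reached 308.3 CPM in isotype WT IL-2 replicate 1 (next 90.45) and 194 CPM in MHC II block WT IL-2 replicate 1 (next 68.03). Summed CD8 T cell markers reached 75.28 CPM in MHC II block WT IL-2 replicate 1 (next 32.34). All 4 values came from WT IL-2 mice.

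The blockade effect differed between treatments for 19 of the 54 genes refitted singly under every alternative. The edgeR adjusted p of that interaction was 5.2e-06 for Alox5ap, 5.2e-06 for Atf3, 0.0684 for Cd28, 0.00379 for Cd83, 0.00514 for Ctsg, 0.000611 for Dsp, 0.00863 for Elane, 0.0668 for Epx, 0.00196 for F13a1 and 5.2e-06 for Flt3. It was 0.0927 for Foxo1, 0.0198 for Ifit1, 0.00292 for Il7r, 0.00976 for Mpo, 0.00976 for Ms4a3, 5.2e-06 for Nfam1, 0.0755 for Nyx, 0.00136 for Pax5 and 0.0226 for Prtn3.

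The blockade effect differed between Tcons and Tregs for 24 of the 54 genes. The difference in log2 fold change, Tcons minus Tregs, was -0.87 for Ccr6, -0.89 for Ccr9, -0.36 for Cxcr5, -0.87 for Dst, 2.78 for F13a1, 0.97 for Ifit1, 0.52 for Igfbp4, -0.38 for Ikzf3, -0.27 for Il2ra, 0.27 for Isg15, -0.30 for Itpr2 and 0.71 for Klf10. It was -0.50 for Ly6a, -1.58 for Nyx, 0.94 for Padi4, 0.56 for Ramp1, -0.34 for Rora, 0.30 for Top2a, -0.18 for Traf3, 0.37 for Ube2c, 0.51 for Tnf, 0.55 for Dntt, 0.89 for Cxcl10 and -0.26 for Fosl2.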

How the results depend on the processing

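The 3624 called genes became 1565 without treatment as a covariate, 2023 at an adjusted p under 0.05, 204 when a change of 1 or more on the log2 scale was asked for, 2384 without the H16R mice and 170 without the 3x mice. They became 0 with B cell and myeloid marker sums as covariates, an alternative chosen after seeing the data. In that fit the log2 fold changes turned to -0.29 for Alox5ap, -0.29 for Atf3, 0.2 for Cd28, -0.26 for Cenpe, 0.12 for Foxo1, 0.31 for Il7r, -0.09 for Nfam1, 0.17 for Pax5, -0.24 for Top2a and -0.18 for Ube2c. Atf3 also moved to -0.06 without the WT IL-2 mice and to 0 without the H16R mice. The causes of these changes were not tested.

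With 1 library left out the count ran from 2129 to 4969. Within treatments it ran from 729 to 856 for PBS, 355 to 6296 for WT IL-2, 242 to 420 for H16R and 2449 to 3106 for 3x, where the lone library of an arm was assumed to vary like the other groups. The interaction ran from 914 to 5746. The Tcon minus Treg difference ran from 1758 to 3408, and was 571 without the mouse as a block.

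Upper quartile scaling called 3796 genes, 2310 higher and 1486 lower, so the share of rises was 60.9% in place of 47.7%. DESeq2 called 4194, the fit with 8 group means 5047 and the B cell marker sum alone 3566. The replicate number as a block gave 3509 genes, and 1229, 1337, 520 and 4873 within PBS, WT IL-2, H16R and 3x, with 1590 for the interaction. Same-numbered mice did not deviate together in every treatment (correlations of -0.037, 0.248, 0.26 and -0.036), so the pairing was taken as a number only. Of the 54 genes refitted singly under every alternative, 52 were called, and 24 of these also without 3x.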
